A study of Mus musculus with 2 samples.

Results

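Emp1, Emp2, Emp3 and Pmp22 are the genes of the PMP22/EMP family of small tetraspan membrane proteins, and their RNA was examined in 4T1 cells treated using PBS or potassium oxalate. The 4T1 line comes from a mammary carcinoma of a mouse and spreads to the lung when grafted. The 4 genes were chosen by name as a family, and the family was picked on the measured values of the same comparison, because Emp1 was more than 3-fold higher in oxalate at a high level. All 4 were found among the 21911 genes listed. One library was sequenced for PBS (the control) and 1 for oxalate, both after 48 h, and nothing else distinguished the groups in the labels. The dose is given as 20 mM in the treatment protocol and as 20 µM in the treatment label of the oxalate sample. Each value is an FPKM, the fragments counted on a gene, divided by the length of its transcript and by the mapped fragments of the library, so that levels of different genes can be compared per length. With 1 library a condition there was no replicate error and no test of the conditions, and every difference below compares 2 libraries.

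Proteins of this family cross the membrane several times, carry a glycosylated first extracellular loop and share a fold with the claudins of tight junctions. PMP22 is best known from compact myelin of Schwann cells, where a change in its gene dose causes inherited neuropathies. The epithelial membrane proteins EMP1, EMP2 and EMP3 are found in many epithelia, at the cell surface and in vesicles, and have been studied in adhesion, proliferation and tumour growth. EMP2 is known to act on integrins and focal adhesion kinase.

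The members, chosen by name as a family, share a gene structure, which is given as a description. In GENCODE M21 (GRCm38) the coding part of each gene is divided over 4 exons. The first coding exon is 78 bases in all 4 genes, and the third is 141 bases in Emp1, Emp3 and Pmp22 and 147 in Emp2. The coding part without the stop codon holds 160 codons in Emp1 and Pmp22, 163 in Emp3 and 172 in Emp2. The first coding exons are shown because their equal length lets the family be compared base by base without gaps. They lie at chr6:135377211-135377288 (+ strand) in Emp1, chr16:10292262-10292339 (- strand) in Emp2, chr7:45920289-45920366 (- strand) in Emp3 and chr11:63133167-63133244 (+ strand) in Pmp22. They are printed 5′ to 3′, with capitals at the bases that are the same in all 4 genes:
Emp1: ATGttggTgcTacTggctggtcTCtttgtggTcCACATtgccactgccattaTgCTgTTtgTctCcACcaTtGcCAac
Emp2: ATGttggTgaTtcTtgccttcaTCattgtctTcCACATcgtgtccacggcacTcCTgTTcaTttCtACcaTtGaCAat
Emp3: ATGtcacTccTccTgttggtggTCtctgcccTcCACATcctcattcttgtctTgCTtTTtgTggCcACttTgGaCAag
Pmp22: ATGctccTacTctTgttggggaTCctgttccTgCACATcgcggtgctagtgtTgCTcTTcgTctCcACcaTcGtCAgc

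Of the 78 positions, 27 (34.6%) were the same in all 4 genes. Over the whole coding part, aligned in pairs, Emp1 and Emp2 were the closest pair, with 69.9% of 472 aligned bases identical. Emp1 and Pmp22 were the most distant pair, with 61.2% of 467 bases. The other pairs lay between 64.0% and 67.5%. The genes lie on 4 different chromosomes, and no other annotated gene overlaps any of them.

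Emp1 was the only member that differed strongly between the libraries. Emp1 (ENSMUSG00000030208, chr6:135362545-135383173, + strand) was at 116.14 FPKM in PBS and at 382.02 FPKM in oxalate. Its FPKM was 3.29-fold higher in oxalate, and its log2((oxalate + 1)/(PBS + 1)) was 1.71. In the order of all listed genes by FPKM, Emp1 stood at rank 822 in PBS and at rank 184 in oxalate, so that an already abundant transcript moved into the top 0.84%. These are the values that chose the family, and they are given as a description. In bulk RNA, more cells that express a gene and more RNA per cell cannot be told apart.

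Emp2 (ENSMUSG00000022505, chr16:10281749-10313968, - strand) was the member with the second highest level and the smallest difference. It was at 37.46 FPKM in PBS and 40.89 FPKM in oxalate, a difference of 9.16%, and its log2 fold change on the same scale was 0.12. Emp3 (ENSMUSG00000040212, chr7:45918023-45921404, - strand) was at 9.55 FPKM in PBS and 13.02 FPKM in oxalate, with a log2 fold change of 0.41. Pmp22 (ENSMUSG00000018217, chr11:63128982-63159547, + strand) was lowest in both libraries. Its values were 4.14 FPKM in PBS and 5.2 FPKM in oxalate, with a log2 fold change of 0.27. All 4 members were therefore higher in the oxalate library, Emp1 by more than 3-fold and the other 3 by at most 1.36-fold in FPKM. The direction of Emp1 was fixed by the choice of the family. Over all genes with a mean FPKM no lower than 1 the median log2 fold change was 0.0031. A higher value in oxalate was thus common among all genes, and the shared direction is no result about the family.

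**Figure D1:**
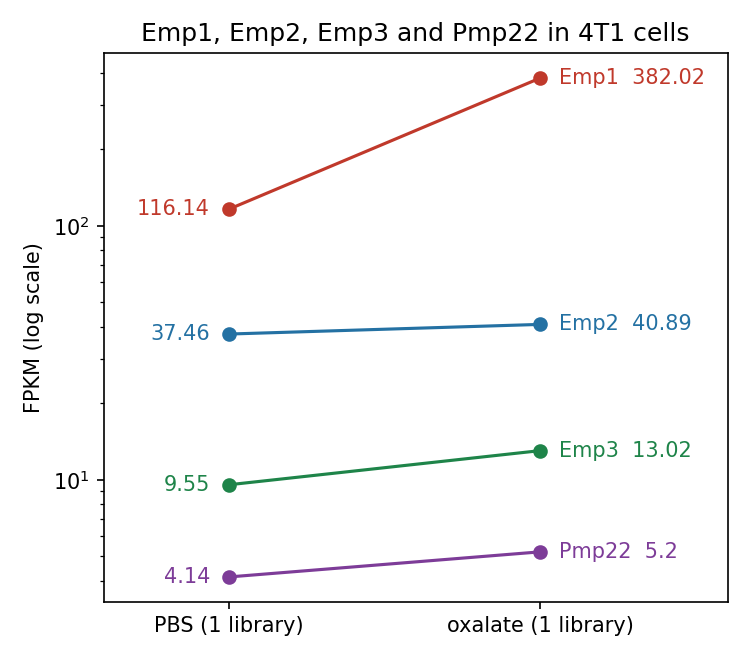
FPKM (log scale) of the 4 genes in the PBS and the oxalate library, with 1 point per library and the value beside it. The line of Emp1 climbs from 116.14 to 382.02, whereas the lines of Emp2, Emp3 and Pmp22 rise much less and never cross.

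The order of the levels, Emp1 over Emp2 over Emp3 over Pmp22, was the same in both libraries. Emp1 was 3.1 times the level of Emp2 in PBS and 9.34 times in oxalate. By contrast, the ratio of Emp2 to Emp3 was 3.92 and 3.14, and that of Emp3 to Pmp22 was 2.31 and 2.5. The FPKM of the family summed to 167.29 in PBS and 441.13 in oxalate, a 2.64-fold difference, but to 51.15 and 59.11 without Emp1. Emp1 made up 69.4% of the family sum in PBS and 86.6% in oxalate.

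Depth sets the counting error of these differences, which is only a part of their uncertainty. From the steps between low FPKM values, the PBS library was estimated at about 56700000 reads and the oxalate library at about 36300000. With the mean length of the coding transcripts, Emp1 rested on an estimated 18424 reads in PBS and 38831 in oxalate. The exact (Clopper-Pearson) 95% interval of its log2 ratio, taken without a pseudocount, ran from 1.69 to 1.74. For Emp2, with 7305 and 5109 reads, the interval was 0.07 to 0.18. Emp3 had only 338 and 296 reads and an interval of 0.22 to 0.68, and Pmp22 had 298 and 240 reads and an interval of 0.08 to 0.58. Without a pseudocount, the log2 ratio was 0.45 for Emp3 and 0.33 for Pmp22. The intervals lay above 0 for all 4 genes, which for Emp1 the choice of the family fixed. They cover counting error only, and not the spread between cultures or library preparations, which was not measured.

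Against the rest of the transcriptome, 67 of the 10267 genes with a mean FPKM no lower than 1 differed at least 2-fold (0.653%), of which 30 were higher (0.292%) and 37 lower (0.36%) in oxalate. All 4 members passed this filter on the mean, and 1 of the 4, Emp1, was past 2-fold, which the choice of the family fixed. Only 5 genes (0.0487%) were at least 3-fold higher, and Emp1 was the 5th of them. The median log2 fold change of all these genes was 0.0031, and 90.1% lay within 1.2-fold, Emp2 among them. For each member, the genes with a mean FPKM from 0.5 to 2 times its own give a closer background. For Emp2, 72.5% of 3336 such genes had a smaller absolute difference, and for Pmp22 it was 86.2% of 2601. For Emp3 it was 95.6% of 3828, so that its difference was among the larger ones at this level although under 2-fold. The genes of each background were matched on FPKM and not on reads or length. Emp3, with only 338 and 296 estimated reads, carries more counting error than a longer gene of the same FPKM. For Emp1, whose values chose the family, all 613 genes within the same limits differed less, and 1 of them was past 2-fold.

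**Figure D2:**
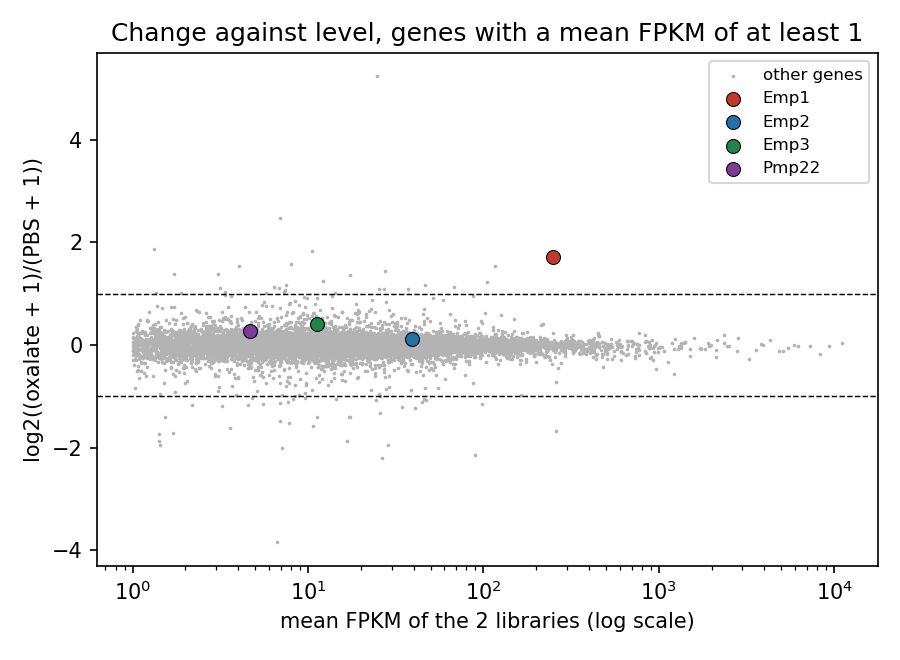
Log2((oxalate + 1)/(PBS + 1)) against the mean FPKM of the 2 libraries (log scale) for the 10267 genes with a mean FPKM no lower than 1. Each point is a gene and the dashed lines mark a 2-fold difference. Emp1, at 1.71, lies higher than any other gene with a mean FPKM of 100 or more. Emp2, Emp3 and Pmp22 lie between the dashed lines.

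The family was chosen at a 3-fold limit, and few abundant genes lay near it. Among the 8284 genes with a mean FPKM no lower than 5, 4 were at least 3-fold higher on the (oxalate + 1)/(PBS + 1) scale. Emp1 was the one nearest to the limit, at 3.27. Plagl2, a zinc finger transcription factor, was the next inside at 3.54, with 4.07 FPKM in PBS and 16.96 in oxalate. Just outside were Tmem164, a membrane protein, at 2.99 (3.49 and 12.41 FPKM) and Atp6v0c, the proton-carrying ring subunit of the V-ATPase, at 2.92 (59.03 and 173.99 FPKM). Of the 967 genes with a mean FPKM no lower than 100, 4 differed at least 2-fold (0.414%). Besides Emp1, and named after their values were seen, these were Gpx1, a glutathione peroxidase (396.61 FPKM in PBS and 123.5 in oxalate), Atp6v0c, and Rtn4, a protein that shapes the endoplasmic reticulum (62.45 and 148.0 FPKM).

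No other gene had nearly the same pair of levels as Emp1. By the distance between log2(FPKM + 1) values over the 2 libraries, the nearest was Arhgdib, at 188.84 FPKM in PBS and 250.89 in oxalate (distance 0.92). It was followed by Shmt2, a mitochondrial enzyme of serine and folate metabolism (184.22 and 240.23 FPKM, distance 0.94). The scaffold gene Iqgap1, the endosomal GTPase gene Rab5c and the RNA-binding protein gene Hnrnpf were at distances of 1.09, 1.09 and 1.10. The log2 fold changes of these 5 genes lay between 0.17 and 0.41, all far under that of Emp1. The Emp1 values used here are those that chose the family, so that the lack of a close match is a description only. Values from 2 libraries give a likeness of level rather than of a pattern.

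A gene-level FPKM also depends on which transcripts the reads are assigned to. Emp1 has 6 annotated transcripts, of which 3 carry the whole coding part, starting at positions 135362545, 135362931 and 135367493 of chromosome 6. Their lengths were 2911, 2721 and 2763 bases, a ratio of longest to shortest of 1.07, and 2549 bases were common to all 3. The 4 coding exons are the same in the 3, which differ in their first, noncoding exons. Over all 6 transcripts, the longest was 5.02 times the shortest, because a retained-intron transcript has only 580 bases. How reads were assigned to such transcripts is not given in the sources used here, and its part in the difference was not tested. Of the 1746 genes with 3 coding transcripts and a mean FPKM no lower than 1, 0.974% differed at least 2-fold, Emp1 among them.

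**Figure D3:**
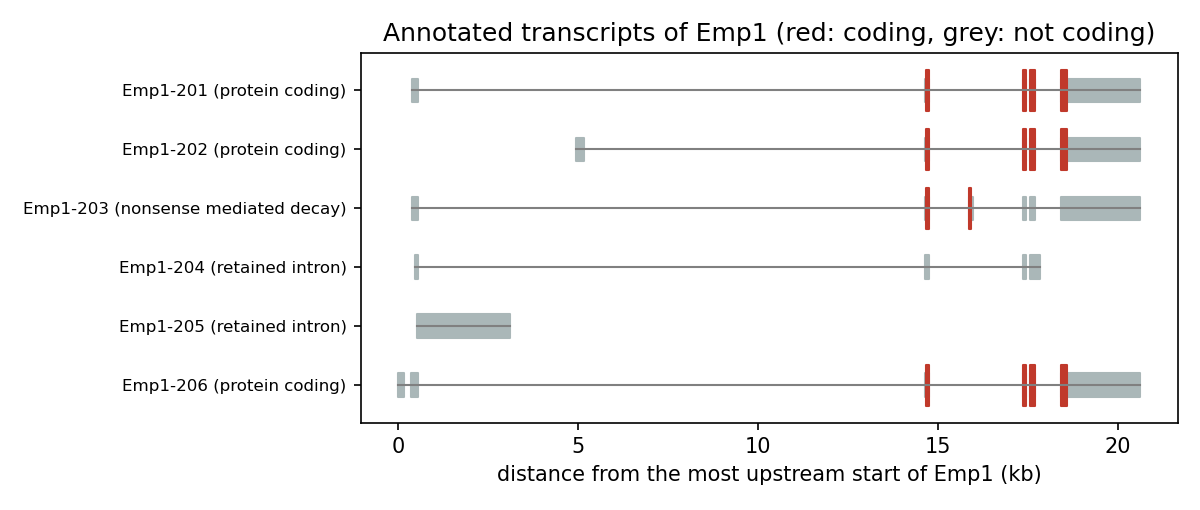
The 6 annotated transcripts of Emp1, drawn to scale by their distance in kb from the most upstream start. Boxes are exons, with the coding part in red and noncoding parts in grey, and lines are introns. The 3 transcripts with the whole coding part share the 4 red coding exons and the long last exon, and differ at the start.

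For the other members, Emp2 has 1 coding transcript of 3440 bases, so that no choice between coding transcripts arises. Among genes with 1 coding transcript and a mean FPKM no lower than 1, 4 of 2613 (0.153%) differed at least 2-fold. Emp3 has 4 coding transcripts between 380 and 784 bases, a ratio of 2.06, and the 3 that hold the whole coding part span 601 to 784 bases, a ratio of 1.3. Pmp22 also has 4, between 723 and 1822 bases, a ratio of 2.52. Among genes with 4 coding transcripts that passed the same filter on the mean, 0.746% of 1207 differed at least 2-fold. The FPKM of Pmp22 differed 1.26-fold between the libraries, less than its ratio of lengths. That of Emp3 differed 1.36-fold, less than the ratio over all its coding transcripts but slightly more than that over the 3 whole ones. The part of transcript use in either difference was not tested.

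The sequence before the Emp1 start at position 135362931 is shown because Emp1 carried most of the difference of the family. The window of this start also held 1 of the motifs searched, the site of AP-1 (Fos and Jun) factors. A gene-level FPKM does not tell which start was used. The RefSeq promoter window (GRCm38.p6) holds 250 bases before and 50 bases after each annotated start, and its first 250 bases, chr6:135362681-135362930 on the + strand, are printed 5′ to 3′ with the AP-1 letters in capitals:
Emp1: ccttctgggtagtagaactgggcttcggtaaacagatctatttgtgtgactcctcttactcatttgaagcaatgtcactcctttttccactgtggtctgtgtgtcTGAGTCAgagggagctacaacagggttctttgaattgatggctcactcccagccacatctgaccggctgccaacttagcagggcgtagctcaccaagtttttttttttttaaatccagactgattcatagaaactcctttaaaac

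TGAGTCA, the AP-1 consensus, begins 145 bases before this start. Both strands were searched for it in all 300-base windows of the table, and it was in 1709 of 32851 (5.2%). The longest coding transcript of Emp1 starts farther upstream, at position 135362545, for which there was no window to search. The printed stretch lies mostly in the first intron of that transcript. Emp1 has a second window, at the start site 135367493, in which it was not found, nor was it in the 1 window of Emp2, the 2 of Emp3 or the 4 of Pmp22. GGAATG, bound by TEAD factors, was in 1 window of Pmp22 and in 14.7% of all windows. TATAAA was in 1 window of Emp3 and in 13.6% of all windows, and CACGTG, bound by MYC, was in none of the members' windows and in 7.15% of all. No window of a member held more than 1 of these matches, so that none overlapped. A match describes the letters only and does not show that a factor was bound.

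The genes next to Emp1 were nearly silent or barely different. The nearest protein-coding gene upstream was Pbp2, at 0.29 FPKM in PBS and 0.26 in oxalate, 52.1 kb away, followed by Gsg1 at 108 kb, itself a gene of the claudin fold (2.06 and 2.32 FPKM). Downstream, the glutamate receptor gene Grin2b, 330 kb away, was listed at 0 in both libraries and Gm8994, 944 kb away, was at 0.41 and 0.52 FPKM. Over all 4 members, 16 neighbours were read, 2 on each side. Of these, 4 had a mean FPKM no lower than 1 (Gsg1, Nubp1, Tmem143 and Cox10), and their log2 fold changes ran from -0.35 to 0.12. The lowest was Tmem143, a mitochondrial membrane protein gene 0.61 kb from Emp3, at 7.05 FPKM in PBS and 5.33 in oxalate, whereas Emp3 itself was higher in oxalate.

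Most of the more distant relatives with the same fold were listed at 0. Of 27 relatives outside the claudins, 26 were listed (Lim2 was not analysed here), 16 of them at 0 in both libraries, and 5 had a mean FPKM no lower than 1. None of the 5 differed 2-fold, where 0.653% of all genes did, so that a count of 0 is no result about the relatives. Their median log2 fold change was 0.13, with 4 higher and 1 lower, against 0.0031 over all genes. The largest difference was that of Lhfpl2, at 15.34 FPKM in PBS and 17.56 in oxalate (log2 fold change 0.18), followed by Lhfp at 43.07 and 47.61 FPKM (0.14). Perp, an effector of p53 found in desmosomes and named after its values were seen, was at 114.19 and 124.7 FPKM. In PBS, Perp was thus about as abundant as Emp1, whereas in oxalate Emp1 was far above it.

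Among the claudins, which seal tight junctions, 7 of 25 had a mean FPKM no lower than 1, and 14 were listed at 0 in both libraries. None of the 7 differed 2-fold, which is near the background of 0.653%. The median log2 fold change was 0.017, with 4 higher and 3 lower. Cldn7 was at 96.81 FPKM in PBS and 82.71 in oxalate (log2 fold change -0.22), and Cldn12 was at 16.85 and 14.57 FPKM (-0.20). The 2 largest differences among the claudins were therefore lower values in oxalate, by less than 1.2-fold, but the 7 had no common direction.

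Partners of the family were then examined, a list of 17 genes for integrins, focal adhesion kinase, Src, caveolins, junction proteins, chaperones and others that are known to bind or act with a member. Of these, 15 had a mean FPKM no lower than 1 and none differed by more than 1.2-fold, which is near the 90.1% of all genes that lay within it. The median log2 fold change was 0.038, with 11 higher and 4 lower, against a median of 0.0031 over all genes. The largest were those of Itgav, the integrin alpha-v chain (29.83 FPKM in PBS and 33.24 in oxalate, log2 fold change 0.15), and Src, a membrane-bound tyrosine kinase (15.9 and 17.38 FPKM, 0.12). The 2 partners under the filter, named after their values were seen, were Itgb3, the integrin beta-3 chain (0.3 and 0.36 FPKM), and P2rx7, an ATP-gated channel (0.14 and 0.13 FPKM).

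**Figure D4:**
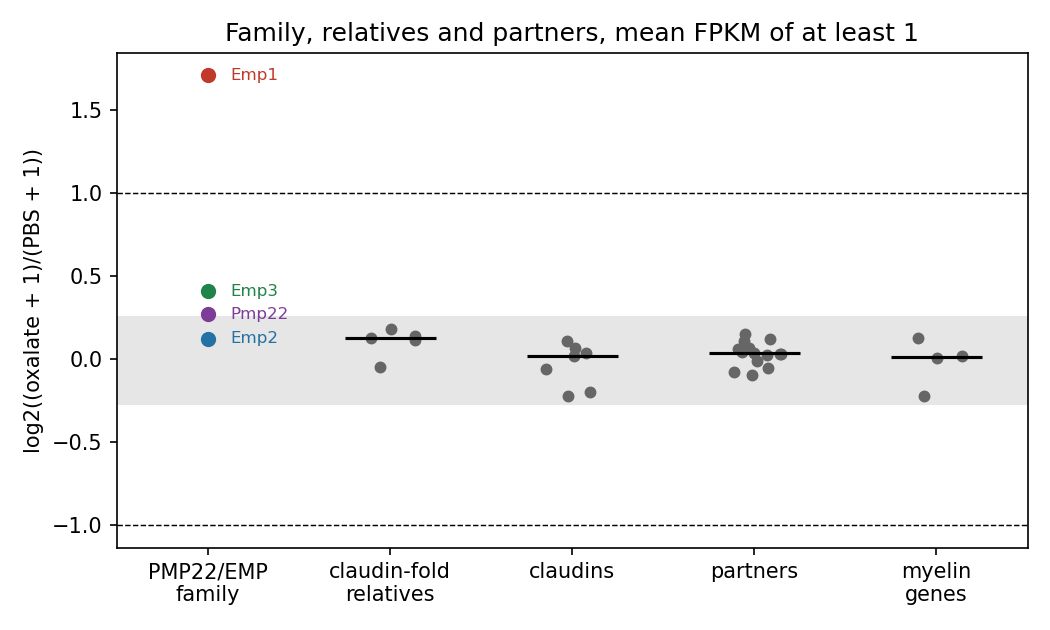
Log2((oxalate + 1)/(PBS + 1)) of the 4 family genes, 5 relatives, 7 claudins, 15 partners and 4 myelin genes with a mean FPKM no lower than 1. Each point is a gene, black bars are list medians, dashed lines mark a 2-fold difference and the grey band spans percentiles 5 to 95 of all such genes (-0.27 to 0.26). Emp1 alone lies past a dashed line, and Emp3 and Pmp22 lie above the band.

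Myelin genes other than Pmp22 ranged from abundant to absent. Of 12 genes of peripheral myelin, 4 had a mean FPKM no lower than 1 and none differed 2-fold (background 0.653%), with a median log2 fold change of 0.011. Cnp, a myelin enzyme also made in other cells, was at 7.41 FPKM in PBS and 6.21 in oxalate (log2 fold change -0.22), and Mbp, which encodes myelin basic protein, was at 16.34 and 17.96 FPKM (0.13). Among the genes named after their values were seen, Mal, a membrane protein also made in epithelia, was the most abundant (96.63 and 96.91 FPKM), and Prx, a cytoskeletal linker of Schwann cells, had 1.37 and 1.4 FPKM. Sox10, a transcription factor of the neural crest lineage and a Schwann cell marker, had 0.02 FPKM in PBS and was listed at 0 in oxalate.

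The labelled cell type was checked on markers of mammary epithelium and of other cells. All 6 epithelial markers were present, such as Krt8 (401.94 FPKM in PBS and 429.31 in oxalate) and Epcam (125.71 and 125.33), and their sum was 1888.09 and 1929.18 FPKM. None of the 3 endothelial or the 4 Schwann cell markers had a mean FPKM no lower than 1, and Ptprc and Itgam of the 3 leukocyte markers were listed at 0. The leukocyte markers summed to 7.79 and 7.11 FPKM, all from Cd68. Of the 4 fibroblast markers, Col1a1 (143.48 and 144.61 FPKM) and Pdgfra (1.88 and 1.93) passed. The summed fibroblast markers were at 146.55 FPKM in PBS and 147.2 in oxalate, nearly all from Col1a1. The Schwann cell markers summed to 0.4 FPKM in PBS and 0.13 in oxalate, lower in oxalate and near 0 in both, and the endothelial markers to 0.08 and 0.09. The part of other cells in the Emp1 difference was not tested.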

How the data were processed

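Polyadenylated RNA was enriched from the cells with oligo(dT) beads and copied with random primers before Illumina sequencing. The submitters' processing notes name Bowtie2 2.2.8 and TopHat2 2.1.1. The counting tool, genome build, annotation and filters are not given in the sources used here. The authors deposited 1 FPKM value per gene and library, rounded to 2 decimals. The values summed to 567163 with PBS and 559026 with oxalate, and 13475 and 13050 genes were above 0.

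Symbols for 21848 of the 21911 Ensembl identifiers came from GENCODE M21 (GRCm38). This annotation may differ from the one the authors used. Each fold change was taken on the log2(FPKM + 1) scale, on which that of low genes is understated, for genes whose mean FPKM reached 1. Depth was estimated from short genes (at most 700 bases) with 1 annotated transcript. Their FPKM times length in kb moved in steps of 0.0176 with PBS (77 genes) and 0.0275 with oxalate (61 genes), each taken as the worth of 1 read. Estimated reads are not counts, and the ratio intervals ignore the error of the length. Coding parts were aligned globally (match 2, mismatch -1, gap opening -4, gap extension -1). The script was tested on simulated data.

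The members, gene lists and alternatives were chosen with earlier results of these data known, and the promoter motifs after the values were seen. The genes named are the 4 members, the 2 largest differences of each list, the 5 genes nearest to Emp1 in level, those around the 3-fold limit and 2 neighbours on each side of each member. The marker genes come from fixed lists, and any other gene named was chosen after its values were seen, as stated beside it. Alternatives were pseudocounts of 0.1 and 0.001, rescaling by the median ratio or the upper quartile, other filters (all genes listed, a mean of at least 5) and thresholds (1.5-fold, 3-fold), and other lengths for the estimated reads. Scripts ran under Python 3.11.15 with biopython 1.88, pandas 2.3.3, scipy 1.17.1, numpy 2.4.6 and matplotlib 3.10.9. Protein sequences were not used here.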

Additional observations from a re-analysis of the deposited data

How the results depend on the processing

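The log2 fold changes of the 4 members stayed within their counting intervals, taken without a pseudocount, under both other pseudocounts and both rescalings. That of Emp1 lay between 1.71 and 1.72, that of Emp2 between 0.12 and 0.13, that of Emp3 between 0.41 and 0.45 and that of Pmp22 between 0.27 and 0.33. Emp1 was the 1 member past the threshold under all 8 alternatives, and its place there followed from the choice of the family on its values. Over all genes, the 67 past 2-fold became 204 at 1.5-fold and 17 at 3-fold, because the threshold differs, and 49 to 100 under the other 6 alternatives. The median of the claudin-fold relatives became 0 over all genes listed, which adds genes listed at 0. The claudin median became -0.023 at a mean of at least 5 and the myelin median -0.026 over all genes listed, both near 0. Estimated reads moved past their counting interval in 14 of 16 values with other lengths. With the union of exons Emp1 would hold 39075 reads with PBS and 82357 with oxalate. The ratio between the libraries stayed the same, because each length was applied to both libraries alike. Whether the lengths behind the authors' FPKM differed between the libraries is not known. No paired analysis was possible because there was a single library for each treatment, and no library could be left out. Counting error was largest for Emp3 and Pmp22, with 240 to 338 estimated reads a library.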
